A study of Mus musculus with 8 samples.

Results

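The genes followed here are 10 receptors through which beta cells sense hormones, neurotransmitters, fatty acids and growth factors (Glp1r, Gipr, Gcgr, Ffar1, Adra2a, Sstr2, Sstr3, Prlr, Insr and Igf1r). The rule that groups them is their function and uses no measured value, although earlier results of these data were known when it was set, and they are 10 of the 21887 protein-coding genes of the GRCm38.p6 annotation. For each gene, the ATAC-seq peaks of 2 lists were taken over its body and over flanks of 25 kb above and below. The cells were MIN6, a beta cell line derived from a mouse insulinoma, of wild-type genotype in both groups, and each group had 4 libraries. The control group received the pcDNA 3 empty vector and the other group pGloMyc-Klf4, a plasmid that expresses the zinc finger transcription factor Klf4, both by lipid transfection for 48 hours. The plasmids have different names, so the comparison is between 2 plasmids as well as between Klf4 and no Klf4, and the share of cells that took up a plasmid was not analysed here. Each group is 1 merged peak list, so every value below is 1 value per group with no spread between libraries, and no test between the groups was made.

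ATAC-seq reads out open chromatin, because a transposase inserts sequencing adapters where DNA is not wrapped in nucleosomes, and open sites outside promoters often lie in enhancers. Several of these receptors modulate how much insulin a beta cell releases at a given glucose level. Glp1r, Gipr and Gcgr are class B receptors for the gut hormones GLP-1 and GIP and for glucagon, and they raise cyclic AMP through the G protein Gs. Ffar1, also called GPR40, binds long-chain fatty acids and signals through Gq, whereas Adra2a (adrenaline) and Sstr2 and Sstr3 (somatostatin) signal through Gi and restrain release. Prlr is a cytokine receptor that acts through JAK2 and STAT5 and supports beta cell growth in pregnancy, and Insr and Igf1r are receptor tyrosine kinases for insulin and insulin-like growth factors.

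Start windows, 250 bases before to 50 bases after an annotated transcript start, were given by RefSeq (GRCm38.p6) for 8 of the 10 genes, and the entries for Gipr and Insr were not found in that table. With the empty vector 6 of these 8 genes had a peak over a start window, and with Klf4 it was those 6 genes again. Over all 17492 protein-coding genes with an entry, 60.8% had a start peak in the control list, and 67.0% did so with Klf4. The receptors with a peak over a start window were Glp1r, Ffar1, Adra2a, Sstr2, Sstr3 and Igf1r, and those without were Gcgr and Prlr. Within 1 kb of a start the count was 7 of 8 in both lists, Prlr being added, against 64.3% and 70.8% of all these genes.

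The 250 bases before the start are shown for these 6 genes, because a peak lay over at least part of their start window with either plasmid. It reached into the bases shown in both lists at 5 of them, whereas at Ffar1 the empty vector peak ended just inside the gene and the Klf4 peak went on into the bases shown. Capitals mark CACCC on either strand, the core letters of sites bound by Kruppel-like factors, and GGGNGTGGC on either strand, a longer Klf4-type run that can overlap CACCC. Each is written 5′ to 3′ on the strand of the gene.
Glp1r (chr17:30901617-30901866, plus strand): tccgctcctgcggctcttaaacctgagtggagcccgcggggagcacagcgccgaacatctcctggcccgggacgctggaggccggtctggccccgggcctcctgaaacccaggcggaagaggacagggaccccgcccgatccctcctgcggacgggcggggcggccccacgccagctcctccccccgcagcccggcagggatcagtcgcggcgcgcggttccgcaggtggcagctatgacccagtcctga
Ffar1 (chr7:30861471-30861720, minus strand): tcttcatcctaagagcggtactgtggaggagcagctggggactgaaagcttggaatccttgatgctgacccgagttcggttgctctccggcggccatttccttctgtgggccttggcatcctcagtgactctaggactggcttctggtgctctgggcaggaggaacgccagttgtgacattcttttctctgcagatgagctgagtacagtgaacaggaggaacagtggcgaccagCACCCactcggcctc
Adra2a (chr19:54045009-54045258, plus strand): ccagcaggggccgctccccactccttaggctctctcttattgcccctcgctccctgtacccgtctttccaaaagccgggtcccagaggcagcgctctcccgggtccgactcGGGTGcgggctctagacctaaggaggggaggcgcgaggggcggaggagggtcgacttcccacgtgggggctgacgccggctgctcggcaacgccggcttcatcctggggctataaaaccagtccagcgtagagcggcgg
Sstr2 (chr11:113619077-113619326, plus strand): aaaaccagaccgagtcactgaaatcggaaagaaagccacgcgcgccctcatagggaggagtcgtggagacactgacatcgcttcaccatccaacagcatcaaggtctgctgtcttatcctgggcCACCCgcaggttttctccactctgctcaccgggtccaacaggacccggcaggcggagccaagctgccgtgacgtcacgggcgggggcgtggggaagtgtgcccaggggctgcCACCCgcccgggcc
Sstr3 (chr15:78544346-78544595, minus strand): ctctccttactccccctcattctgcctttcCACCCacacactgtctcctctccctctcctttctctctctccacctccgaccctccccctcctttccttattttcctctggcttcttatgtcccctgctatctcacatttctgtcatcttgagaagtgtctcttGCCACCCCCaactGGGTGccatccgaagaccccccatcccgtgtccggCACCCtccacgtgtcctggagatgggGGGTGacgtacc
Igf1r (chr7:67952007-67952256, plus strand): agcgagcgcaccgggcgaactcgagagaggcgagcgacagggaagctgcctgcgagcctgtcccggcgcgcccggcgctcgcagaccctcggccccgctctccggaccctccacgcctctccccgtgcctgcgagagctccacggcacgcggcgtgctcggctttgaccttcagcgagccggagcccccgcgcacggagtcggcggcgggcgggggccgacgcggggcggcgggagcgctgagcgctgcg

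The start windows with a peak differed in base composition. Igf1r was the richest in CpG, with 42 CpG dinucleotides and 77.6% G and C, followed by Glp1r with 26 and 73.2%, against a median of 6 and 52.4% over all 32851 start windows in the RefSeq table. Ffar1 (8 CpG, 56.4%) and the Sstr3 window shown (6 CpG, 57.2%) were near that median. CACCC occurred 5 times before the Sstr3 start shown, and 1 of these hits lay inside the only GGGNGTGGC match among the 11 windows of the member genes. It occurred 2 times at Sstr2, 1 time each at Adra2a and Ffar1, and not within these 250 bases at Glp1r or Igf1r. The other Sstr3 start window, which a peak of each list touched without reaching the start itself, had 1 CACCC and 1 CpG. The Gcgr window, without a peak, had 1 CACCC, and the Prlr windows, also without a peak, had 0. CACCC was present in 52.01% of all windows, 3 or more times in 6.92%, and GGGNGTGGC in 5.11%. Start windows without a peak were not uniformly poor in CpG. The Gcgr window had 24 CpG and 70.4% G and C with no peak in either list, while the 3 Prlr windows had 6, 2 and 2 CpG.

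As facts of the whole series, the empty vector list held 100099 peaks and the Klf4 list 128538 on chromosomes 1 to 19, X and Y, and read depth is unknown from these lists. The strongest peak of the Klf4 list (−log10 q 17134) lay over the Klf4 gene, at chr4:55529721-55530988. The strongest empty vector peak over that gene, chr4:55532451-55533410, ranked 19941 (−log10 q 32.2) and did not overlap the first. How many reads of the first peak came from the Klf4 plasmid rather than from the chromosome was not tested. All 12 beta cell markers examined had peaks in their windows in both lists, 74 and 76 in all. So did most markers of other cell types, 20 and 21 of 22, with 95 and 138 peaks in all, so peak presence in a window does not tell these cell types apart. Of the 9 beta cell markers with a start window, 8 had a peak over it with the empty vector and 7 with Klf4, against 4 and 5 of 14 for the other cell types. Those 4 were 2 of 2 alpha cell, 1 of 3 delta cell and 1 of 2 leukocyte markers, and none was a PP cell, acinar, duct or fibroblast marker. With Klf4 the one added was an acinar marker.

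**Figure D1:**
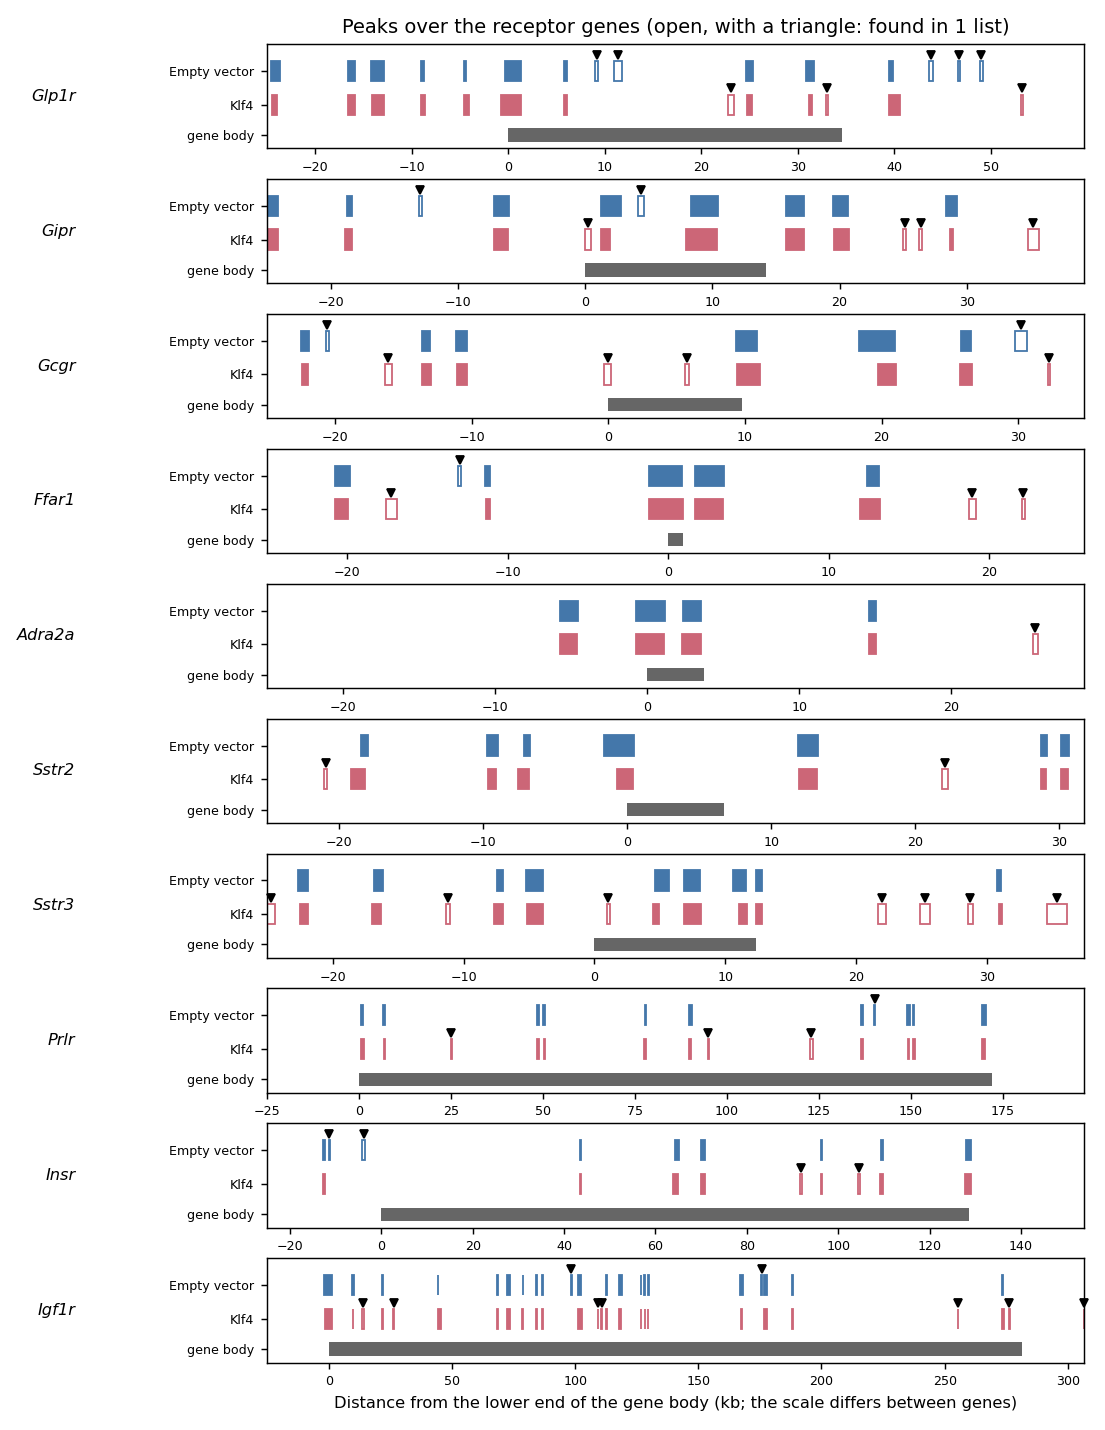
Peaks over each receptor gene and its 25 kb flanks, by distance from the lower end of the gene body in kb (each panel has its own scale), with the empty vector row above the Klf4 row and the gene body as a grey bar. Filled boxes are peaks overlapped by a peak of the other list and open boxes with a triangle are peaks found in 1 list. Most boxes are filled, and the open boxes at Sstr3 lie mainly in the flanks, 6 of its 7.

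Over the 10 windows the empty vector list had 100 peaks and the Klf4 list 121. A peak overlapped by at least 1 bp of a peak in the other list is called matched, a Klf4 peak without such a partner gained, and an empty vector peak without one lost. The lists shared 85 matched pairs, every one of them 1 peak to 1 peak, so no receptor peak was split or fused. Gained peaks numbered 36, or 29.8% of the Klf4 peaks (95% Wilson interval 22.3 to 38.4%). Over the whole list 36.7% of Klf4 peaks were gained, and 36.6% of those in the 25 kb window of any protein-coding gene. Lost peaks numbered 15, or 15.0% of the empty vector peaks (interval 9.31 to 23.3%), against 18.8% over the whole list and 17.6% in windows of protein-coding genes. Both intervals include the shares of the whole lists, and under other settings the receptors' share of lost peaks lay above that of the whole list, such as 27.0% against 24.9% when 50% of a peak had to be covered. The share of gained peaks also turned, on few peaks. It was 20% (4 of 20) against 12.7% with the strongest 20000 peaks of each list. With peaks of at least 500 bp it was 35.4% (23 of 65) against 34.1%. These intervals hold counting error alone, and peaks of 1 gene are not independent draws.

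All 10 genes had at least 1 gained peak, as did 72.3% of all protein-coding genes, and 7 of the 10 had at least 1 lost peak, against 49.7%. Shares of all protein-coding genes, here and below, include 2601 genes without a peak in either list, whereas every receptor had peaks. By receptor type, the 3 Gs-coupled receptors had 11 gained and 9 lost peaks, the fatty acid receptor 3 and 1, the 3 Gi-coupled receptors 10 and 0, the prolactin receptor 3 and 1, and both receptor tyrosine kinases together 9 and 4. For the Gi-coupled genes this is 0 of 20 empty vector peaks lost and 33.3% of 30 Klf4 peaks gained. For the Gs-coupled genes it is 27.3% of 33 lost, 5 of the 9 at Glp1r alone, and 31.4% of 35 gained. These stand beside 18.8% lost and 36.7% gained over the whole lists, and the differences between receptor types were not tested. The median density of peaks was 12.1 empty vector peaks and 15.5 Klf4 peaks per 100 kb of window, against 6.27 and 8.08 over all protein-coding genes, whose windows had a median length of 67169 bp against 63269 bp here. Density varied within the group, and 8 of the 10 genes were above the median of all genes with the empty vector and 7 with Klf4, Prlr (4.96 and 5.86) and Insr (5.04 in both lists) being below it in both.

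**Figure D2:**
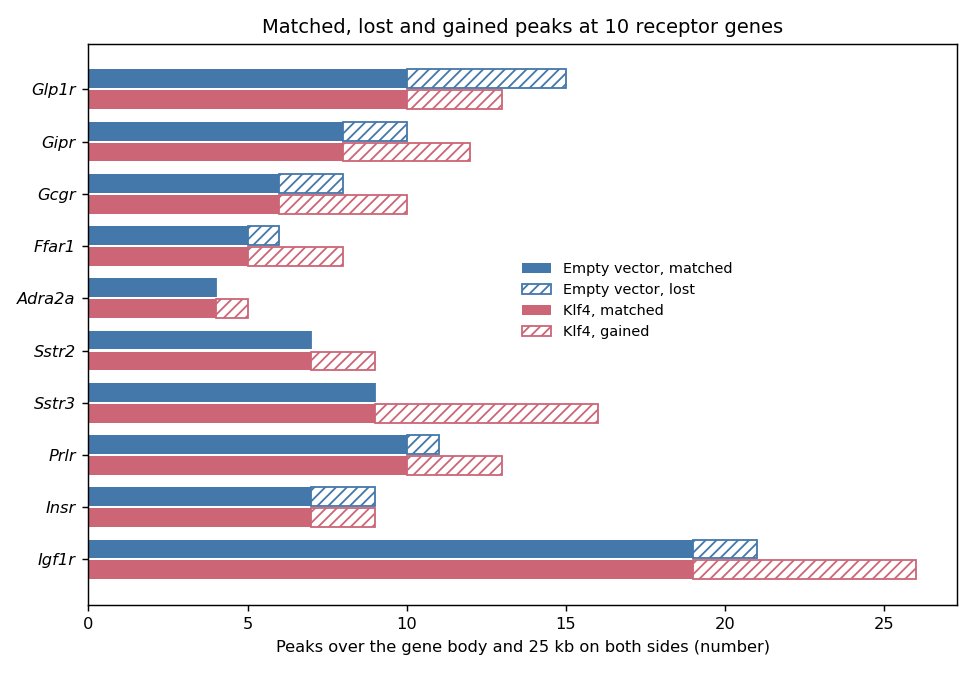
Number of peaks in the window of each receptor gene, solid where matched and hatched where found in 1 list, for the empty vector (blue) and Klf4 (red). Glp1r is the gene with more peaks with the empty vector, 15 against 13, and Sstr3 goes from 9 to 16.

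Glp1r, the GLP-1 receptor, was the 1 receptor gene with fewer peaks in the Klf4 list. It had 15 peaks with the empty vector and 13 with Klf4, with 10 matched, 5 lost and 3 gained, and it was the 1 gene of the 10 with more lost than gained peaks, as 11.6% of all genes had. The peaks upstream of the gene, all 5 between chr17:30877314 and 30897790, were matched. They included the strongest of the window in each list, chr17:30885249-30885992 with the empty vector (−log10 q 56.9, the top 12.1% of its list) and chr17:30877360-30877931 with Klf4 (−log10 q 57.8, the top 7.64%). The start peak was matched and reached 453 bp farther upstream with Klf4 (2047 bp wide against 1656 bp), with a −log10 q of 19.2 and 15.6.

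The unmatched peaks at Glp1r lay inside the gene and downstream of it, while matched peaks upstream differed in width, such as the pair from chr17:30897230, which went from 207 to 503 bp. The 3 strongest lost peaks were chr17:30945463-30945853 (−log10 q 4.77), chr17:30910855-30911179 (3.09) and chr17:30948470-30948695 (2.96), the first and last of them over the lncRNA gene Gm41562, which lies downstream and in which all 3 empty vector peaks of the window were lost. The gained peaks were chr17:30954981-30955228 (6.67), in the neighbouring gene Umodl1, and chr17:30924603-30925274 (3.13) and chr17:30934835-30935036 (1.26) in the Glp1r body. The highest −log10 q of all 8 unmatched peaks was 6.67, so gains and losses were both among weak peaks. Covered length was 9736 and 8955 bp, a log2 ratio of −0.11 on the scale log2((Klf4 bp + 500) / (empty vector bp + 500)), which changed sign under 3 of 8 alternative settings.

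Gipr, the receptor for GIP, had 10 peaks with the empty vector and 12 with Klf4, with 8 matched. The strongest peak of any receptor window lay here, chr7:19148870-19150087 with the empty vector (−log10 q 251, rank 626 of 100099) and chr7:19148866-19149994 with Klf4 (213, rank 472 of 128538). It lies 5976 bp below the gene with the empty vector, and overlaps Qpctl and Snrpd2. Inside the gene body 2 pairs were matched, the stronger at chr7:19157313-19158880 with the empty vector (41.7) and 685 bp wide with Klf4 (35.8) against 1568 bp. The gained peak at chr7:19156034-19156530 spans the lower end of the gene (10.1), at 783 bp from the nearest empty vector peak, and the 3 other gained peaks lay in Eml2, the strongest being chr7:19190844-19191755 (7.58) and chr7:19182342-19182555 (6.68). The lost peaks were weak, chr7:19142985-19143247 (2.06) in Qpctl and chr7:19160236-19160685 (1.29) in the body. Covered length was nearly equal, 10198 against 10256 bp (log2 ratio 0.01, with the other sign under 5 of 8 settings).

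Gcgr, the glucagon receptor, had 8 and 10 peaks, 6 of them matched. Its annotated start at position 120530727 of chromosome 11 had no peak within 1 kb in either list. The strongest peak spanned the other end of the gene, chr11:120538554-120540033 with the empty vector (−log10 q 145, the top 3.02%) and chr11:120538606-120540315 with Klf4 (97.1, the top 3.50%). Body peaks were 1 with the empty vector and 3 with Klf4, the gained ones being chr11:120528890-120529398 (2.24) at the lower gene end and chr11:120534761-120535098 (1.32). Gcgr lies on the plus strand, so the lower end of its annotated body (120529185), under the first of these gained peaks, is its upstream end. In the flanks, chr11:120512787-120513351 was gained with a −log10 q of 7.73, chr11:120561378-120561549 in P4hb was gained (1.90), and chr11:120508468-120508722 (2.20) and chr11:120558945-120559839 (3.16) were lost. The largest narrowing in bp among the 85 matched pairs lay in the upper flank, over Mcrip1 and Ppp1r27, from 2663 bp (chr11:120547514-120550176) to 1305 bp. Covered length was 8024 and 7412 bp (log2 ratio −0.11), but the ratio was 0.62 over the gene body alone and 0.14 with 50 kb flanks, so the direction depended on the window.

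Ffar1, the fatty acid receptor, is a gene of 903 bp on chromosome 7, and its body lay under 1 peak, whole with Klf4 and but for the last bases at its start with the empty vector. That peak was chr7:30859373-30861438 with the empty vector (−log10 q 4.67) and chr7:30859362-30861522 with Klf4 (6.47). It was wide, 2066 and 2161 bp, but in the weaker part of both lists by −log10 q (the top 68.6% and 56.0%). The stronger peak of the window lay 752 bp above the gene, on the upstream side of its minus-strand start, at chr7:30862222-30864046 with the empty vector (49.97, the top 13.8%) and chr7:30862226-30864002 with Klf4 (30.2, the top 14.9%). In the flanks, chr7:30842968-30843663 (2.24), chr7:30879333-30879729 in Cd22 (3.47) and chr7:30882624-30882791 (2.34) were gained and chr7:30847488-30847656 (2.55) was lost. Covered length was 6088 and 7560 bp (log2 ratio 0.29), but 0.02 with 10 kb flanks, so the difference lay in the outer flanks, and the sign changed under 2 of 8 settings.

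Adra2a, the alpha-2A adrenergic receptor, changed least of the 10 in the length shared by both lists. All 4 empty vector peaks were matched and 1 weak peak was gained at chr19:54070654-54070947 (−log10 q 3.09), 21672 bp above the gene. The lists shared 90.8% of the length covered by either, against a median of 55.7% over all protein-coding genes. The start peak was the strongest here, chr19:54044521-54046409 with the empty vector (98.3, the top 6.23%) and chr19:54044539-54046392 with Klf4 (81.6, the top 4.76%), with widths of 1889 and 1854 bp. A further peak, chr19:54047621-54048821 with the empty vector (58.1), lay inside the gene towards its far end and was matched (34.6). Covered length was 4698 and 4989 bp (log2 ratio 0.08, with the other sign under 5 of 8 settings).

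Sstr2, a somatostatin receptor, lies inside a long annotated gene, Slc39a11, which spans almost the whole window. All 7 empty vector peaks were matched and the 2 gained peaks were chr11:113641169-113641578 (−log10 q 5.12) and chr11:113598298-113598490 (4.97). The start peak narrowed from 2134 bp (chr11:113617692-113619825) to 1063 bp (chr11:113618658-113619720), with its upstream edge 966 bp nearer the start, and it had a −log10 q of 25.7 with the empty vector and 28.9 with Klf4. The strongest peak was chr11:113631288-113632488 with Klf4 (47.7, the top 9.49%), which was matched (25.7 with the empty vector), and chr11:113649441-113650016 with the empty vector (35.4), at Cog1. Covered length was 6228 and 6105 bp (log2 ratio −0.03), and the ratio ran from −0.72 to 1.36 over the alternative settings, with the other sign under 1 of 8.

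Sstr3, the somatostatin receptor that sits on primary cilia, had the largest difference in peak density of the 10, 14.4 peaks per 100 kb of window with the empty vector and 25.7 with Klf4. All 9 empty vector peaks were matched and 7 were gained, giving 16 Klf4 peaks. The gains were mostly outside the gene, 6 in the flanks and 1 in the body (chr15:78537934-78538218, −log10 q 4.87). Of the flanking ones, 4 lay in Rac2, the gene of a small GTPase best known from blood cells, where the empty vector list had 1 peak and the Klf4 list 5. The 3 strongest gained peaks were chr15:78561864-78562640 (15.3), chr15:78558692-78559284 (9.998) and chr15:78525688-78525991 (9.82), the first pair in Rac2 and the last in C1qtnf6. The first is the strongest unmatched receptor peak of all, in the top 28.0% of the Klf4 list.

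Inside Sstr3 the same 4 body peaks were present in both lists, and they covered less with Klf4. The peak over the start shown above was chr15:78543849-78545055 with the empty vector (−log10 q 14.5) and chr15:78543849-78545129 with Klf4 (28.0), with its lower edge at the same base. The peak at the other annotated start narrowed from 1084 to 441 bp (12.7 and 9.71), and a further body peak from 1055 to 545 bp (18.5 and 31.1). Over the whole window covered length went from 7353 to 10650 bp, a log2 ratio of 0.51, whereas over the gene body alone the ratio was −0.33 and with 10 kb flanks 0.01. The strongest peak of the window was matched and lay 3964 bp below the gene at C1qtnf6, chr15:78531818-78533050 with the empty vector (176, the top 1.87%) and chr15:78531825-78533050 with Klf4 (130, the top 1.84%).

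Prlr, the prolactin receptor, was sparsely covered, with 11 and 13 peaks over a window of 221953 bp, all inside the gene body. Its 3 annotated start windows had no peak in either list. The nearest peak lay downstream of the lowest start, chr15:10177788-10178406 with the empty vector (−log10 q 2.71, rank 83230 of 100099) and chr15:10177897-10178501 with Klf4 (18.4, rank 30342 of 128538), where it was the strongest Prlr peak. With the empty vector the strongest was chr15:10225698-10226176 (14.2), matched with a −log10 q of 8.45. Values of −log10 q from separate lists are not on 1 scale, so the pair does not measure a change. Gained peaks were chr15:10272094-10272327 (11.4), chr15:10299761-10300623 (8.79) and chr15:10202145-10202373 (5.22), and the lost peak was chr15:10317116-10317586 (2.15). Covered length was 5958 and 6056 bp (log2 ratio 0.02). No Prlr peak remained in either list at a −log10 q of at least 20 or among the strongest 20000 peaks, so those settings say nothing of this gene.

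Insr, the insulin receptor, had 9 peaks in each list, 7 of them matched. A strong peak spanned the upper end of the gene, chr8:3278877-3279887 with the empty vector (−log10 q 120) and chr8:3278649-3279887 with Klf4 (91.1). The strongest lay in the body at chr8:3220849-3221733 with the empty vector (134, the top 3.58%) and chr8:3220832-3221745 with Klf4 (113, the top 2.56%). The gained peaks, chr8:3242572-3242972 (3.95) and chr8:3255356-3255617 (1.88), lay in the body, and the lost ones, chr8:3139399-3139696 (2.62) and chr8:3146646-3147458 (2.30), below the gene. Covered length was 5371 and 5625 bp (log2 ratio 0.06, 0.44 over the body alone, and the other sign under 1 of 8 settings).

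Igf1r, the receptor for insulin-like growth factors, is the longest gene of the group at 281412 bp and had the most peaks, 21 with the empty vector and 26 with Klf4. Of these, 19 were matched, all in the body. The start peak was the widest matched peak of the group, 2892 bp for the control (chr7:67950551-67953442, −log10 q 33.1) and 2952 bp with Klf4 (26.0). The strongest lay deep in the gene, chr7:68128992-68130167 with the empty vector (51.2, the top 13.5%) and chr7:68128981-68130154 with Klf4 (49.9, the top 9.03%). Of 7 gained peaks the strongest were chr7:68062969-68063185 (6.45), chr7:67965642-67966443 (5.80) and chr7:68228303-68228614 (5.44). The lost peaks were chr7:68127796-68128138 (7.58), which lies 843 bp from a Klf4 peak and was the strongest lost receptor peak, and chr7:68050640-68050911 (5.11). Covered length was 13513 and 15460 bp (log2 ratio 0.19), but the ratio was −1.45 with the strongest 20000 peaks of each list, and the sign changed under 3 of 8 settings.

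**Figure D3:**
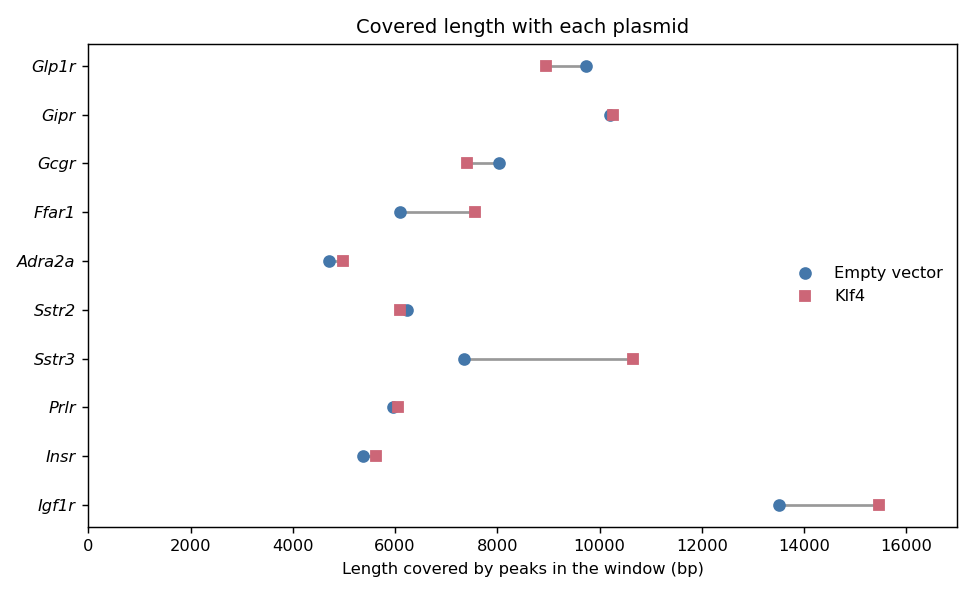
Length covered by peaks in each receptor window in bp, with the empty vector (circles) and Klf4 (squares). The symbols lie close together at Gipr, Prlr and Sstr2 and far apart at Sstr3, which goes from 7353 to 10650 bp.

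Across the group, covered length was higher with Klf4 in 7 genes and lower in 3 (Glp1r, Gcgr and Sstr2), and it was higher in 67.8% of all protein-coding genes. Of the 80 ratios that 8 alternative settings gave for the 10 genes, 23 had the other sign. With a limit of 0.5 on the log2 scale, 1 of 10 receptors was past it upwards, Sstr3, against 27.8% of all genes, and 0 of 10 downwards, against 2.07%. Sstr3, at 0.51, was just past this limit and was under it in 6 of 8 alternative settings. The gene past it was Ffar1 (0.71) with peaks of a −log10 q of at least 5, Sstr2 (1.36) with the strongest 20000 peaks and Gcgr (0.62) over the gene body. The median log2 ratio was 0.04 for the receptors and 0.21 for all genes, with quartiles of −0.02 and 0.16 for the former and 0 and 0.55 for the latter. Ratios of the receptors ran from −0.11 (Glp1r, percentile 11.8 of all genes) to 0.51 (Sstr3, percentile 72.6). In total 77167 bp of the receptor windows were covered with the empty vector, against 83068 bp for Klf4. Covered length counts what passed the peak caller, not the height of the signal.

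**Figure D4:**
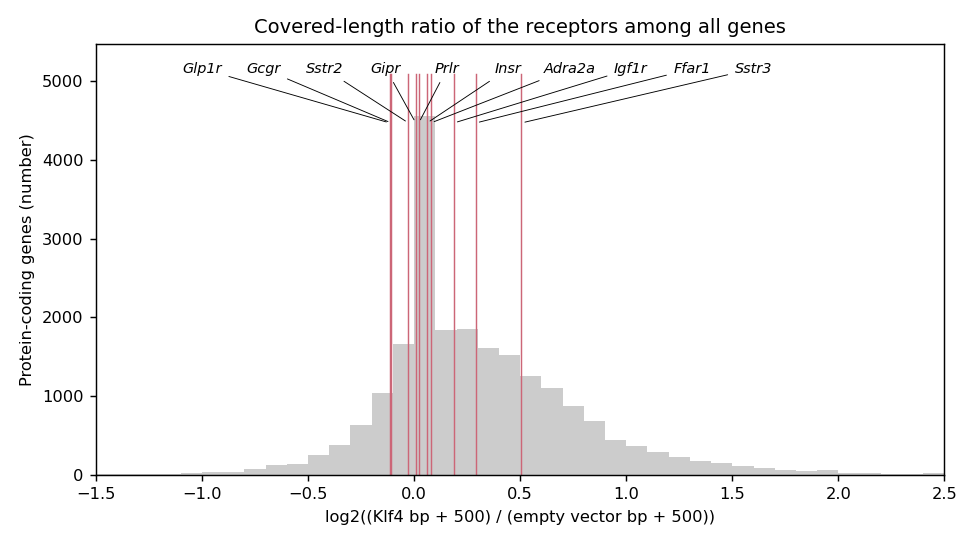
Number of protein-coding genes by log2 ratio of covered length (bins of 0.1, shown from −1.5 to 2.5), with a red line for each receptor. The bin from 0 to 0.1 includes 2622 genes with equal lengths, 2601 of them without a peak in either list, and 9 of the 10 receptors lie between −0.11 and 0.29, with Sstr3 at 0.51.

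Unmatched receptor peaks were weak and narrow in both lists. Gained peaks had a median −log10 q of 4.83 and a median width of 325 bp, against 9.71 and 605 bp for matched Klf4 peaks. Lost peaks had medians of 2.55 and 333 bp, against 12.2 and 744 bp. The whole lists had the same order, with medians of 4.75 and 355 bp for gained and 2.63 and 280 bp for lost peaks. At a −log10 q of 10 or more, 3 of 45 Klf4 peaks were gained, at Sstr3, Prlr and Gipr, against 17.6% of all such Klf4 peaks. At that limit 0 of 47 empty vector peaks were lost, which allows up to 6.38%, against 1.14% of all. Such upper bounds, here and below, take peaks as independent draws, which peaks of 1 gene are not. The limits of 10 and 20 were put here on the counted peaks alone, a choice made after seeing the data. At 20 or more none of 30 Klf4 peaks and none of 34 empty vector peaks was unmatched, which allows up to 10% and 8.82%, and over the whole lists the shares were 7.24% and 0.121%. With the limit of 20 on both lists, 3 of 30 were gained and 7 of 34 lost, against 16.4% and 18.6% of all peaks at this setting. Few unmatched peaks had a near neighbour among the peaks of the other plasmid, 1 of 36 gained and 2 of 15 lost peaks within 1 kb, with median gaps of 3494 and 2872 bp.

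**Figure D5:**
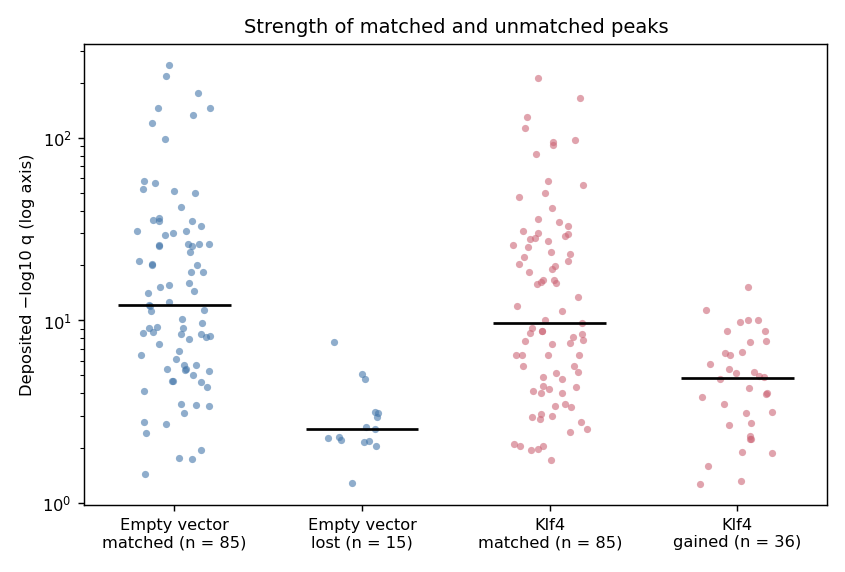
Deposited −log10 q of each receptor peak on a log axis, split into matched and unmatched peaks of each list, with random sideways spread and the median as a black line. Medians are 12.2 (matched) and 2.55 (lost) with the empty vector, and 9.71 (matched) and 4.83 (gained) with Klf4.

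By location, 17 of 67 Klf4 peaks in the receptor gene bodies were gained and 19 of 54 in the flanks, against 35.0% and 38.0% when peaks are counted the same way over all protein-coding genes. Lost were 6 of 56 empty vector peaks in the bodies and 9 of 44 in the flanks, against 16.7% and 15.1%. The difference between body and flank was not tested. Of the flanking unmatched peaks, 15 of the 19 gained and 6 of the 9 lost overlapped another annotated gene, such as Eml2 beside Gipr and Rac2 beside Sstr3, as did 17 of the 35 matched flanking peaks in each list. Which gene such a peak acts on was not tested. Matched peaks differed in width in both directions. Of 85 pairs, 36 were wider with Klf4 and 49 narrower, 42.4% wider against 46.9% of all 79834 such pairs, with a median log2 width ratio of −0.04 against −0.01. By 1.5 times or more, 9 were wider and 15 narrower, which is 10.6% and 17.6% of the pairs, against 13.8% and 12.3% of all pairs.

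Other receptor genes and genes that signal after receptors were counted in the same way, in lists put together from their known roles. Of 34 other receptor genes, 9 had a log2 ratio of 0.5 or more and 0 had −0.5 or less, with a median of 0.28. The window of Ffar3, which is among them, gave nearly the values of Ffar1 (6088 and 7586 bp against 6088 and 7560 bp), so this list may share peaks with the receptors. Of 50 genes that signal after the receptors (G protein subunits, adenylyl cyclases, phosphodiesterases, and the JAK-STAT and insulin pathways), 14 were past 0.5 upwards and 0 downwards, with a median of 0.27. Both counts are near the 27.8% of all protein-coding genes. With 10 receptors and no spread between libraries, the difference between their median of 0.04 and these medians was not tested.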

How the data were processed

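ATAC-seq had been done on 8 libraries, 4 for each plasmid. The submitters' processing notes name FastQC, Bowtie2, MACS2, DiffBind and the mm10 build (GRCm38), and the labels' protocols name an mRNA-seq library kit. Versions, options, read filters, transposase shift, and whether libraries were merged before or after peak calling are not given in the sources used here. The authors deposited 2 merged broad peak lists, in which a peak has a fold, which is its ratio to local background, and −log10 of a p-value and of a q-value. Broad calling joins neighbouring stretches, which sets peak widths, and a deeper library passes more weak peaks. Peak values were described and ranked within a list, and some alternatives put 1 limit on −log10 q in both lists although the lists are not on 1 scale.

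Peaks on chromosomes 1 to 19, X and Y were assigned to genes by the RefSeq GRCm38.p6 table, which matched all 10 receptors and the genes of the other lists. A peak was matched at 1 bp of overlap, and 500 bp was added to both covered lengths before the log2 ratio. The receptors and gene lists were chosen with earlier results of these data known. Named peaks are the strongest of each gene and list, those at starts, and all gained or lost peaks up to 3 of a kind, otherwise the 3 strongest. Other matched peaks, and further unmatched ones at Gcgr and Sstr3, were chosen after their values were seen. Alternatives were limits on −log10 q, list length or peak width, a larger overlap, other flanks, 100 bp added and a start distance of 1 kb. The counting was tested on simulated lists with known answers. Python 3.11.15, numpy 2.4.6, pandas 2.3.3 and scipy 1.17.1 were used.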

Additional observations from a re-analysis of the deposited data

How the results depend on the processing

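No paired analysis was possible because each plasmid has a single merged list without values per library, and leaving out each replicate was not run for the same reason. The share of receptor Klf4 peaks gained (29.8%, whole list 36.7%) left its 95% interval at a −log10 q of at least 20 in both lists (10%, whole list 16.4%). It also did so with 50% of both peaks overlapping (44.6%, 47.5%), with 10 kb flanks (22.0%) and with the top 20000 peaks (20%, 4 of 20, whole list 12.7%). This share was above the whole list with the top 20000 peaks, as it was at 500 bp or wider (35.4%, 23 of 65, and 34.1%). In settings chosen after seeing the data, which matched the limited peaks to the whole other list, it was 20.8% at 5 (26.8%) and 0% at 20 (7.24%). The share of empty vector peaks lost (15.0%, whole list 18.8%) left its interval with peaks of at least 500 bp (23.6%, 20.4%), with 50% of the peak covered (27.0%, 24.9%) or of both peaks (33.0%, 32.6%), and in the added settings at 5 (2.82%, 5.09%) and 20 (0%, 0.121%). It was above the whole list in the first 3 of these and at 5 (16.9%, 12 of 71, and 16.3%) in both lists. So it was at 20 in both lists (20.6%, 7 of 34, and 18.6%) and with the top 20000 (15.8%, 3 of 19, and 12.7%). Genes past 0.5 upwards went from 1 to 0 at 20 and with flanks of 10 kb or 50 kb. Where the count was 1, the gene was Sstr3 with peaks of at least 500 bp or 100 bp added, and otherwise Ffar1, Sstr2 or Gcgr. Genes past −0.5 went from 0 to 2 at 20 (Adra2a and Sstr2, 5.78% of all genes) and to 2 with the top 20000 peaks (Gipr and Igf1r, 4.83%), against 2.07% as reported. Of 80 gene ratios under alternatives, 62 moved by less than 0.25, 2 of them at Prlr without a peak left in either list. Sign changed in 23, among them Sstr3, the only ratio past 0.5 at the outset, over its body (−0.33), and Ffar1 at 20 (−0.44). The cause was not tested.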

Other observations

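Among the other receptors with at least 1000 bp covered in either list, the 3 with the highest log2 ratio of covered length were Adrb1, Glp2r and Adora2a. Adrb1, the beta-1 adrenergic receptor, had 1 peak of 168 bp with the empty vector, which was lost, and 5 gained peaks covering 4009 bp with Klf4 (log2 ratio 2.75). Glp2r, the receptor for GLP-2, went from 5 peaks and 2798 bp to 14 peaks and 6742 bp (1.13), and Adora2a, an adenosine receptor, from 2638 to 5283 bp (0.88). The lowest were Gpr119, a receptor for lipid amides (2408 to 2015 bp, −0.21), Met, the receptor for hepatocyte growth factor (2176 to 1922 bp, −0.14), and Sstr1, a somatostatin receptor (2461 to 2214 bp, −0.13).

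Of the signalling genes, the highest were Igf2, a ligand of Igf1r, with 3 peaks and 4406 bp against 13 peaks and 9564 bp (1.04), Adcy5, an adenylyl cyclase, with 15 and 27 peaks (0.98), and Rapgef3, a cyclic AMP sensor, with 12 and 20 peaks (0.95). The lowest were Gnai1 (−0.41), an inhibitory G protein subunit, Pde3b (−0.40), a phosphodiesterase that lost 4 of 9 peaks and gained 0, and Prkar1a (−0.20), a regulatory subunit of protein kinase A. Each value is from 1 merged list per plasmid, without a spread between libraries.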
